A study of Mus musculus with 16 samples.

Results

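The expression of 10 genes of neutrophil recruitment and of mature neutrophils was examined in abdominal tumors of mice. They were 4 CXC chemokine genes (Cxcl1, Cxcl2, Cxcl3 and Cxcl5), the growth factor gene Csf3 with its receptor gene Csf3r, the chemokine receptor gene Cxcr2, and 3 genes that mature neutrophils express strongly (S100a8, S100a9 and Retnlg). The members were chosen by name, with earlier results of these data known, and all 10 were found among the 22298 genes of the count files. The tumors came from wild-type 615-line mice, 6 weeks old at inoculation, that had received 500000 MFC cells in the abdomen; MFC is a mouse forestomach carcinoma line of the same strain. One group, called the vehicle group here, was given PBS and the other was given IL-33 at 20 µg/kg, both by intraperitoneal injection every 2 days, and RNA from 8 tumors of each group was sequenced. The labels do not tie tumors to mice, and the methods give 4 or 5 mice per group for this model, so the p-values below measure the spread between tumors, some of which may come from 1 mouse.

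Neutrophils leave the blood toward chemokines of the ELR type, named for the residues before their CXC motif. In mice, Cxcl1, Cxcl2, Cxcl3 and Cxcl5 encode such chemokines, and all of them act through the receptor that Cxcr2 encodes. Csf3 encodes G-CSF, which drives the production and release of neutrophils from the bone marrow through its receptor, Csf3r. S100a8 and S100a9 encode the calcium-binding pair that forms calprotectin, which is abundant in the neutrophil cytoplasm and is also made by monocytes. Retnlg encodes a resistin-like protein of mature neutrophils. The chemokines themselves are made by many cell types, including macrophages, stromal cells and tumor cells, so a chemokine level in a whole tumor is not a count of neutrophils. In such bulk RNA, fewer cells of a type and less RNA per cell cannot be told apart.

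The 4 chemokine genes lie together on chromosome 5 (GRCm38): Cxcl5 at 90759360 to 90761624, Cxcl3 at 90786103 to 90789600, Cxcl1 at 90891241 to 90893115 and Cxcl2 at 90903871 to 90905938, all on the plus strand. S100a8 (90668978 to 90670035, plus strand) and S100a9 (90692632 to 90695721, minus strand) are neighbors on chromosome 3. Csf3 lies on chromosome 11 (98701263 to 98703629), Csf3r on chromosome 4 (126024550 to 126044440), Cxcr2 on chromosome 1 (74153989 to 74161246) and Retnlg on chromosome 16 (48872621 to 48874496), all on the plus strand. No other annotated gene overlapped any of the 10. The regions just upstream of the start sites of Cxcl1, Cxcl2 and Cxcl3 are shown because these 3 neighbors share an 11-base stretch, GGGAATTTCCC, the longest found in all of them within 250 bases of the start, which holds a form of the site bound by NF-κB, the inflammatory transcription factor that IL-33 signaling is known to activate. The sequences are from RefSeq (GRCm38.p6), plus strand, 5′ to 3′, each 152 bases long and ending 29 bases before the RefSeq start site, with that stretch in capitals. They cover chr5:90891065-90891216, chr5:90903719-90903870 and chr5:90785921-90786072.
Cxcl1: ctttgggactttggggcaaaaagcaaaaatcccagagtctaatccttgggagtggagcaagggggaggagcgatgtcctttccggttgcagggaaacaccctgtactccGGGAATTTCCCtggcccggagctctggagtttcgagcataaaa
Cxcl2: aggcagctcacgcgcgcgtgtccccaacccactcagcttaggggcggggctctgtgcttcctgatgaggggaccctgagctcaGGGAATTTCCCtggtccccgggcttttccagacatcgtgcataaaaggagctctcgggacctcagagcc
Cxcl3: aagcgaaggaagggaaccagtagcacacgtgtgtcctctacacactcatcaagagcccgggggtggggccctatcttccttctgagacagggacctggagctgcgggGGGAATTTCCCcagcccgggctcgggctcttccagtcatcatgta
The stretch began 71 bases before the start site in Cxcl1, 97 in Cxcl2 and 73 in Cxcl3. On either strand, where it reads GGGAAATTCCC on the other, it was found within 250 bases upstream of the start in 14 of 32851 RefSeq promoters, or 0.0426%. Of the 10 genes, 8 were matched to a promoter entry by symbol, and 3 of these 8 held it. The search was chosen after the sequences had been seen, and a match is a description of the letters, not evidence of binding.

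The total count per tumor was 14139268 to 24290794 in the vehicle group and 16569613 to 24288893 in the IL-33 treatment group. A total of 16817 genes had at least 10 reads over the 16 tumors and were tested, all 10 members among them. A pair of tumors stood apart from the rest. The 4 hemoglobin genes counted together reached 12754.5 CPM (counts scaled to 1000000 counted reads per tumor) in vehicle replicate 4, against 169.2 to 1064 CPM in the other 7 vehicle tumors. A list of 10 genes of uterus and oviduct summed to 1757 CPM in IL-33 replicate 7 and to at most 27.5 CPM in any other tumor. Of 10 genes typical of squamous epithelium, the kind of lining from which forestomach carcinoma arises, the summed level was 1.23 to 10.1 CPM over all tumors, Sprr3 was at 0 in every tumor, and Krt5, Krt6a, Krt4 and Dsg3 were at 0 in 8 or more. Many of the results that rest on these tumors are given with and without them. The likeness of other genes to the members was repeated without IL-33 replicate 7 only, not without vehicle replicate 4.

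None of the 10 genes passed the threshold of an adjusted p under 0.05 between the groups (edgeR quasi-likelihood test, Benjamini-Hochberg adjustment over 16817 genes), with adjusted values from 0.485 for S100a9 to 0.976 for Cxcl2. No gene of any kind passed in that fit (0% called), and DESeq2 also called 0 with its default replacement of outlying counts and 162 without it, none of them a member. At an unadjusted p under 0.05, 1876 genes were called (11.2%), 1680 as higher (9.99%) and 196 as lower (1.17%) in the IL-33 treatment group, and 0 of the 10 members were among them. The same count was 0 of 10 without IL-33 replicate 7, where 651 of 15803 genes were called (4.12%), and 0 of 10 without vehicle replicate 4, where 1575 of 16773 were (9.39%). The fitted change was above 0 for 5 members and below 0 for 5, against 58.3% above 0 over all genes tested. The median of their log2 fold changes was 0.055, and the median over all genes was 0.056.

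Cxcl3 had the highest median level per transcript length of the 4 chemokine genes. Its level in the vehicle group was 33.9 CPM at the lowest, 78.0 CPM at the median and 167.9 CPM at the highest, and in the IL-33 treatment group these values were 23.8, 105.9 and 277.0 CPM. The groups overlapped, with 5 of 8 IL-33 tumors inside the vehicle range, while IL-33 replicates 2 (208.2 CPM) and 6 (277.0 CPM) lay above every vehicle tumor and IL-33 replicate 7 lay below every one. The means were 85.5 ± 48.6 CPM for vehicle and 125.3 ± 82.9 CPM for IL-33 (SD, n = 8 each). The fitted log2 fold change of Cxcl3 was 0.52 (SE 0.46, 95% interval -0.47 to 1.51, edgeR adjusted p = 0.738), and the exact two-sided permutation test of the log2 levels gave p = 0.385. It was 0.69 without IL-33 replicate 7. With replicate 6 left out instead it was 0.19, so this single tumor accounted for much of the fitted value. Under limma voom, which gives less weight to tumors of poor fit, the value was 0.92 with an unadjusted p of 0.0230 and an adjusted p of 0.774.

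**Figure D1:**
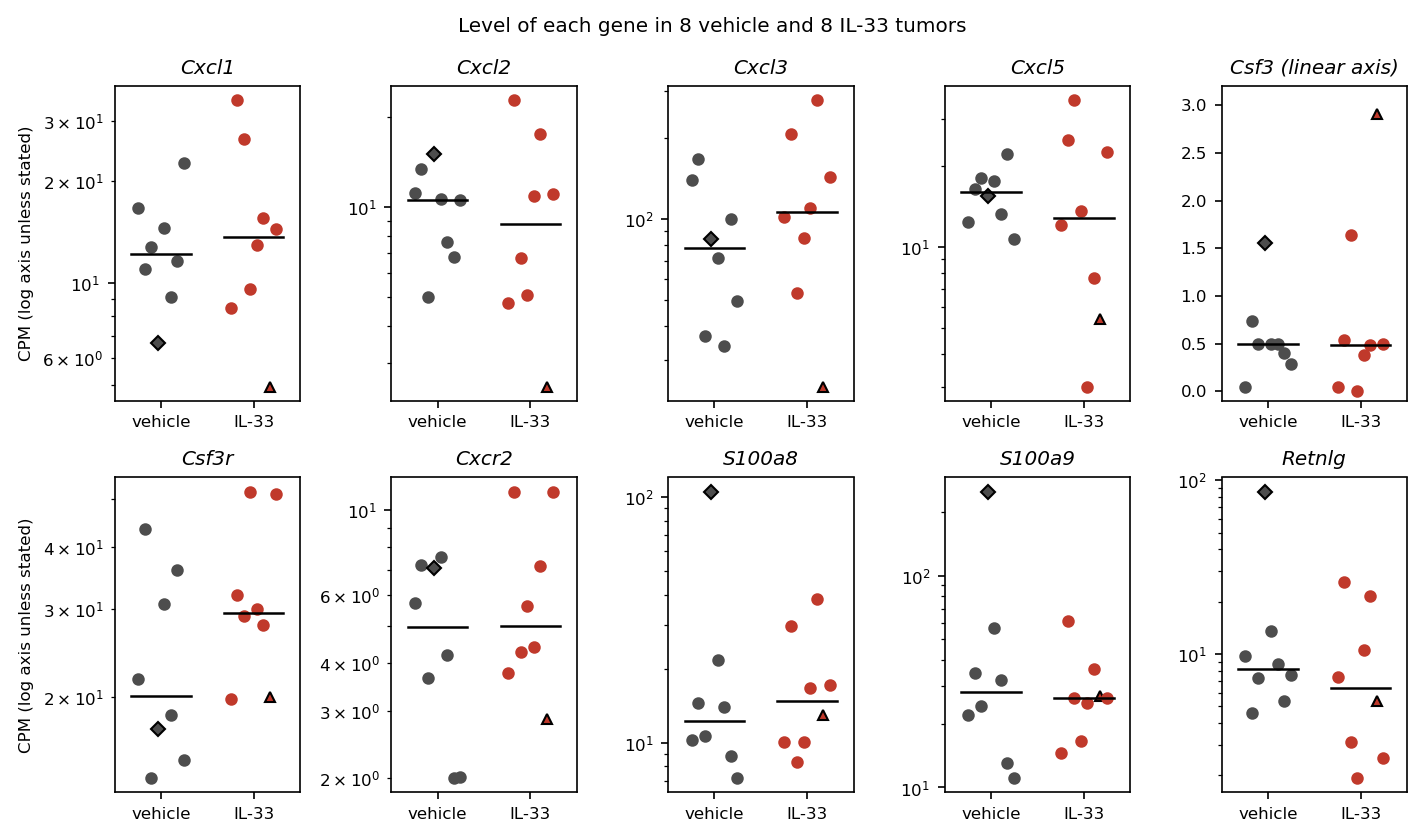
Level of each of the 10 genes in CPM in each tumor (vertical axes logarithmic, except for Csf3), with 8 vehicle tumors in gray, 8 IL-33 tumors in red and a black line at the group median. The diamond is vehicle replicate 4, at 104.8 CPM for S100a8, 249.0 CPM for S100a9 and 85.9 CPM for Retnlg, and the triangle is IL-33 replicate 7, the lowest of all tumors for Cxcl1, Cxcl2 and Cxcl3.

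Cxcl1, whose product is often called KC, was at 6.65, 12.2 and 22.5 CPM (lowest, median and highest) in the vehicle group and at 4.96, 13.7 and 34.5 CPM in the IL-33 treatment group. IL-33 replicates 2 and 3 exceeded all vehicle tumors and IL-33 replicate 7 was below all of them in CPM, and with TMM-scaled library sizes IL-33 replicates 1 and 4 were below all of them too. Cxcl1 had a log2 fold change of 0.25 (SE 0.35, 95% interval -0.50 to 1.00), which moved to -0.028 when IL-33 replicate 2 was left out and to 0.40 when replicate 7 was. Cxcl2, whose product is also known as MIP-2, was at 4.99, 10.6 and 14.99 CPM in the vehicle group and at 2.51, 8.79 and 22.7 CPM in the IL-33 treatment group. In CPM, IL-33 replicates 2 and 6 lay above every vehicle tumor and IL-33 replicates 1 and 7 lay below every one, whereas with library sizes scaled by TMM factors vehicle replicate 4 was the highest of all tumors at 23.4. Its log2 fold change was -0.077 (SE 0.43, 95% interval -1.01 to 0.86), with the sign turning to 0.083 when IL-33 replicate 7 was left out and to 0.18 when vehicle replicate 4 was.

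Cxcl5 was the chemokine gene whose spread differed most between the groups. Its level was 10.7, 15.99 and 22.2 CPM (lowest, median and highest) in the vehicle group and 3.02, 12.9 and 35.3 CPM under IL-33. The IL-33 tumors lay on both sides of the vehicle group: in CPM, replicates 2, 3 and 8 were above every vehicle tumor (2 and 3 with TMM-scaled library sizes), and replicates 5, 6 and 7 were below every one on both scales. The means were 15.8 ± 3.68 and 15.6 ± 11.1 CPM (SD, n = 8 each), and the log2 fold change was -0.12 (SE 0.40, 95% interval -0.97 to 0.73). The coefficient of variation of Cxcl5 was 23.3% in the vehicle group and 71.4% in the IL-33 treatment group. For Cxcl1 the coefficients were 37.4% and 62.3%, for Cxcl2 33.6% and 68.4%, and for Cxcl3 56.8% and 66.1%. The difference in spread was not tested.

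The tumors of the IL-33 treatment group did not keep 1 order over the chemokines. IL-33 replicate 2 was the highest of all 16 tumors for 3 members (Cxcl1, Cxcl2 and Cxcr2) in CPM, against 1.31% of all genes tested. With TMM-scaled library sizes it was not the highest for Cxcl2. IL-33 replicate 7 was the lowest of all 16 for 3 members (Cxcl1, Cxcl2 and Cxcl3), against 10.1% of all genes tested. That tumor also held the uterus and oviduct transcripts, whose part in its low chemokine levels was not tested. Per length of annotated exon, Cxcl3 made up 35.6% to 69.4% (median 51.8%) of the summed level of the 4 chemokine genes in the vehicle group and 29.5% to 79.1% (median 62.0%) in the IL-33 treatment group, with IL-33 replicate 3 the lowest and IL-33 replicate 6 the highest (exact permutation test of the log2 share, two-sided p = 0.289). As a share of reads, without regard to length, the medians were 66.0% and 75.0%.

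Csf3, the gene of G-CSF, was close to the limit of detection in most tumors. Its level was 0.0494, 0.494 and 1.56 CPM (lowest, median and highest) in the vehicle group and 0, 0.490 and 2.91 CPM in the IL-33 treatment group, and it rested on 74 and 119 reads in all. IL-33 replicate 4 had 0 reads, which allows up to 3 reads at this depth. The highest vehicle value was that of replicate 4, which held 29.7% of the Csf3 reads of its group, and the highest IL-33 value was that of replicate 7, which held 42.9%; in TMM-scaled libraries the former was the higher of the pair. For Csf3 the log2 fold change was 0.19 (SE 0.84, 95% interval -1.61 to 1.98). Leaving out vehicle replicate 4 gave 0.83 and leaving out IL-33 replicate 7 gave -0.32, so its sign depended on which of these tumors was kept.

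Csf3r, the receptor gene for G-CSF, was at 13.7, 20.03 and 43.4 CPM (lowest, median and highest) in the vehicle group and at 19.8, 29.5 and 51.7 CPM under IL-33. The vehicle mean of 24.5 ± 10.9 CPM (SD, n = 8) was exceeded in 6 of 8 IL-33 tumors, and IL-33 replicates 4 and 8 lay above all vehicle values. The log2 fold change of Csf3r was 0.34 (SE 0.26, 95% interval -0.22 to 0.91, edgeR adjusted p = 0.684), and the exact permutation test gave p = 0.140. It was positive in each of the 16 fits that left out 1 tumor, from 0.23 to 0.49, and it was 0.55 under limma voom with an unadjusted p of 0.0414 and an adjusted p of 0.836. With Cxcl3, it was 1 of the 2 members called at an unadjusted p under 0.05 by that test, where 5.74% of all genes were called, and 3.1% as higher.

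Cxcr2, the receptor gene for the 4 chemokines, was at 2.001, 4.96 and 7.56 CPM in the vehicle group and at 2.85, 5.00 and 11.2 CPM under IL-33. The medians of the groups were nearly equal, and IL-33 replicates 2 and 8 lay above every vehicle tumor (replicate 2 alone with TMM-scaled library sizes). Its log2 fold change was 0.22 (SE 0.40, 95% interval -0.64 to 1.09). When tumors were left out in turn, the lowest value was 0.039 (IL-33 replicate 2 left out) and the highest was 0.46 (vehicle replicate 4 left out). Csf3r and Cxcr2 thus each had a positive fitted value in all 16 of these fits, and neither difference exceeded the spread between tumors.

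S100a8, S100a9 and Retnlg had the largest fitted differences, all toward lower levels in the IL-33 treatment group, and in each of them a single vehicle tumor set the value. S100a9 was at 11.1, 28.2 and 249.0 CPM (lowest, median and highest) in the vehicle group and at 14.5, 26.5 and 61.2 CPM under IL-33. The second vehicle tumor was at 56.6 CPM, and no IL-33 tumor was above the vehicle maximum or below the vehicle minimum. The vehicle mean of 55.4 ± 79.5 CPM (SD, n = 8) became 27.7 ± 15.5 CPM (SD, n = 7) without replicate 4, against 29.2 ± 14.6 CPM (SD, n = 8) for IL-33. The log2 fold change of S100a9 was -1.32 (SE 0.67, 95% interval -2.76 to 0.11, edgeR adjusted p = 0.485), -1.28 without IL-33 replicate 7 and 0.085 once vehicle replicate 4 was left out. The exact permutation test of the log2 levels over all 16 tumors gave p = 0.660.

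S100a8 was at 7.16, 12.3 and 104.8 CPM in the vehicle group and at 8.36, 14.8 and 38.6 CPM under IL-33. The median was thus slightly higher in the IL-33 treatment group while the mean was higher in the vehicle group, at 24.0 ± 33.0 against 18.0 ± 10.8 CPM (SD, n = 8 each). For S100a8 the log2 fold change was -0.78 (SE 0.65, 95% interval -2.17 to 0.62) with all tumors, -0.69 without IL-33 replicate 7, and 0.57 (SE 0.38) with the omission of vehicle replicate 4. Retnlg was at 4.598, 8.19 and 85.9 CPM in the vehicle group and at 1.93, 6.38 and 25.9 CPM in the IL-33 treatment group, where IL-33 replicates 3, 4 and 8 were below every vehicle tumor. Its log2 fold change was -1.24 (SE 0.79, 95% interval -2.94 to 0.47), -1.13 without IL-33 replicate 7, and 0.33 (SE 0.55) in the fit that left out vehicle replicate 4. Over all genes tested, leaving out vehicle replicate 4 turned the sign of the fitted change for 18%, and among the members it did so for 4 (these 3 and Cxcl2).

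**Figure D2:**
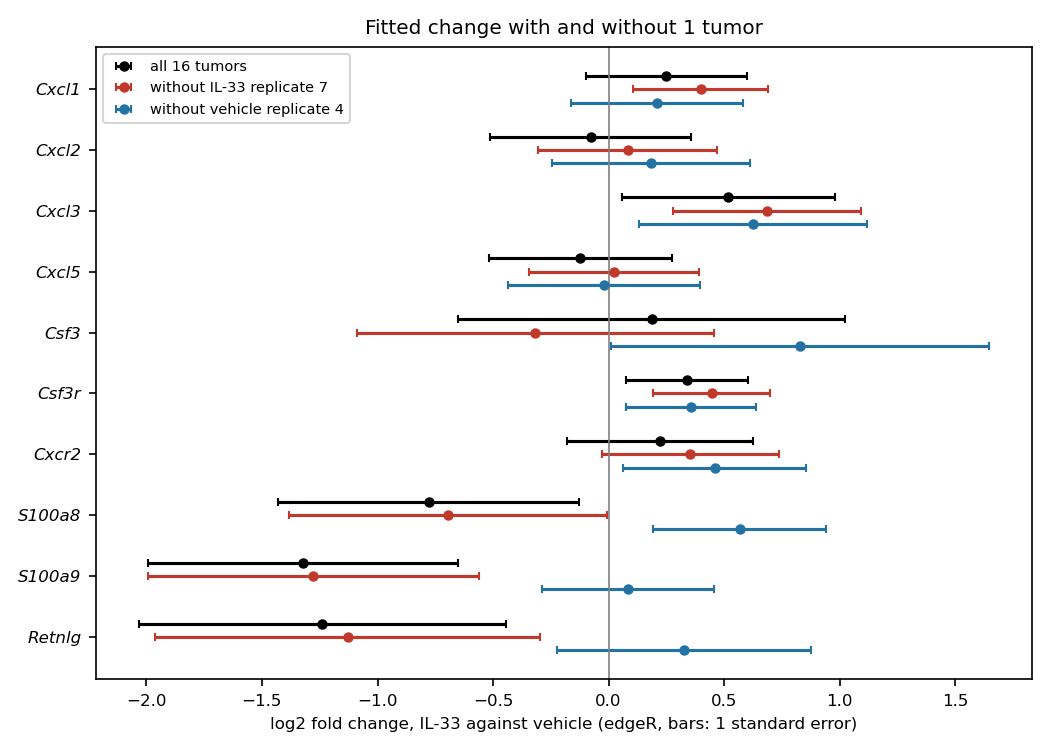
Log2 fold change of each gene, IL-33 against vehicle, from edgeR, with bars of 1 standard error. Black points use all 16 tumors, red points leave out IL-33 replicate 7 and blue points leave out vehicle replicate 4; the blue points of S100a8, S100a9 and Retnlg lie at 0.57, 0.085 and 0.33, on the other side of 0 from the black points.

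With its default treatment of outlying counts, DESeq2 replaced the counts of S100a8, S100a9 and Retnlg in vehicle replicate 4 (1482, 3520 and 1214 reads) by 112, 224 and 66, and replaced no count of another member. The fitted log2 fold changes were then 0.56, 0.10 and 0.34. Without that replacement they were -0.84, -1.39 and -1.31, and S100a9 had an unadjusted p of 0.0298 and an adjusted p of 0.361.

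Vehicle replicate 4 held 49.4% of all S100a8 reads of its group, 51.4% of the S100a9 reads and 54.1% of the Retnlg reads. Against the mean of the other 7 vehicle tumors, its CPM was 8.44 times as high for S100a8, 8.99 times for S100a9 and 10.6 times for Retnlg. It was 3.69 times as high for Csf3, 1.61 times for Cxcl2 and 1.53 times for Cxcr2, while the ratio was 0.985 for Cxcl3, 0.976 for Cxcl5, 0.676 for Csf3r and 0.474 for Cxcl1. The high values were thus not shared by all 10 genes to the same degree, and Csf3r, another neutrophil gene, was below the mean of the other vehicle tumors in CPM and at 1.09 times that mean with TMM-scaled library sizes. In CPM, vehicle replicate 4 was the highest of all 16 tumors for 3 members, against 9.82% of all genes tested. With TMM-scaled library sizes it was the highest for 5 members, which adds Cxcl2 and Csf3. The share of all genes on that scale was not counted, so the 5 have no background to be read against. Of 24 other genes of mature neutrophils, 15 were higher in this tumor than in each of the other vehicle tumors and 2 were lower than in each of them (Mxd1 at 16.3 CPM and Padi4 at 10.5 CPM). Among the former, Pglyrp1, a peptidoglycan-binding granule protein gene, was 10.6 times as high as the mean of the other vehicle tumors in CPM. Of 23 genes of neutrophil trafficking and upstream cytokines, 6 were higher and 9 were lower than in each of the other vehicle tumors, and Cxcr1, the other receptor gene of this family, was 7.65 times as high as their mean, at 1.63 CPM. The share of all genes for which this tumor was the highest or lowest of the vehicle group was not counted. The counts for these lists therefore have no background to be read against.

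The same tumor had 21.2 times the hemoglobin CPM of the other vehicle tumors and low levels of several myeloid and endothelial genes. Itgam, which encodes the CD11b chain of myeloid cells, was at 12.2 CPM there and at 116.0 to 190.0 CPM in the other vehicle tumors. Sele, the endothelial adhesion molecule E-selectin, was at 0.212 CPM against 14.4 to 43.8 CPM, and the macrophage gene Adgre1 was at 9.48 CPM against 40.9 to 139.5 CPM. The summed level of 7 red blood cell genes was 12805 CPM in this tumor, 2846 CPM in IL-33 replicate 7 and 51.2 to 1078 CPM in the other 14 tumors. The summed level of 8 monocyte genes was the lowest of all tumors there, at 1184 CPM, while that of 10 macrophage genes, at 2745 CPM, lay within the range of the other vehicle tumors. The part of any of these in the levels of S100a8, S100a9 and Retnlg was not tested. The library scaling factor of this tumor was 0.640, against 0.895 to 1.10 in the other tumors apart from IL-33 replicate 7 (1.24), and on the scaled libraries the ratios became 13.5 for S100a8, 14.3 for S100a9 and 16.8 for Retnlg.

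**Figure D3:**
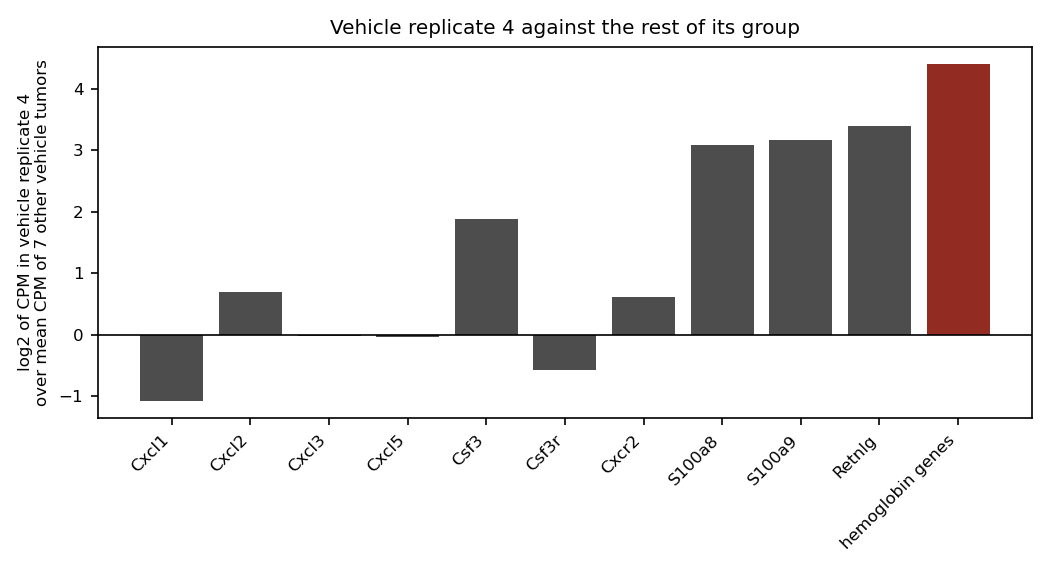
Log2 of the CPM in vehicle replicate 4 over the mean CPM of the other 7 vehicle tumors, for the 10 genes (gray bars) and the 4 hemoglobin genes together (red bar); 0 means an equal level. S100a8, S100a9 and Retnlg reach ratios of 8.44, 8.99 and 10.6 and the hemoglobin genes 21.2, while Cxcl1 and Csf3r lie below 0; with TMM-scaled library sizes the ratio of Csf3r is 1.09 and that of Cxcl1 is 0.761.

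Within the IL-33 treatment group, S100a8 was highest in replicates 6 and 2 (38.6 and 29.9 CPM), S100a9 in replicates 2 and 6 (61.2 and 36.4 CPM) and Retnlg in the same pair (25.9 and 21.6 CPM). These were also the tumors with the highest Cxcl2 and Cxcl3. The ratio of S100a9 to S100a8 in CPM, not scaled by length, was 1.49 to 2.61 (median 2.29) in the vehicle group and 0.944 to 3.17 (median 1.60) in the IL-33 treatment group, and the difference did not exceed the spread between tumors (exact permutation test of the log2 ratio, two-sided p = 0.165).

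The order of the 10 genes by level was taken per length of annotated exon, as RPKM, which is the CPM divided by that length in units of 1000 bases. S100a9 had the highest median over the 16 tumors, at 50.9 RPKM, followed by Cxcl3 at 26.5, S100a8 at 19.4 and Retnlg at 12.7 RPKM. Csf3r (7.88 RPKM), Cxcl5 (7.81), Cxcl1 (6.85) and Cxcl2 (5.11) came next, then Cxcr2 at 1.64 and Csf3 at 0.349 RPKM. Cxcr2 was below Cxcl2 in 16 of 16 tumors and Csf3 was below Cxcr2 in 15 of 16. Other neighbors in the order were less distinct: S100a9 was above Cxcl3 in 13 tumors, Cxcl3 above S100a8 in 11, Retnlg above Csf3r in 11 and Csf3r above Cxcl5 in 6.

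Across the 16 tumors, some of the members varied together. Of the 45 pairs, 4 had a Pearson correlation of the log2 levels past an adjusted p of 0.05 by permutation, and 8 did by Spearman correlation. S100a8 and S100a9 had r = 0.915 (adjusted permutation p = 0.00225) and rho = 0.874 (adjusted permutation p = 0.00225). Without the 2 tumors farthest from the median of S100a8, r was 0.871, and it was 0.983 within the vehicle group and 0.765 within the IL-33 treatment group. S100a8 and Retnlg had r = 0.825 (adjusted permutation p = 0.00832), which was 0.540 without the 2 farthest tumors, and rho = 0.609 (unadjusted permutation p = 0.014). S100a9 and Retnlg had r = 0.762 (adjusted permutation p = 0.0236), which was 0.508 without vehicle replicate 4 (adjusted permutation p = 0.168), and rho = 0.497. Both relations of Retnlg therefore rested in part on vehicle replicate 4.

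Cxcl2 and Cxcl3 had r = 0.739 (adjusted permutation p = 0.0154) and rho = 0.712 (adjusted permutation p = 0.0273). For this pair r was 0.715 without the 2 farthest tumors, 0.602 within the vehicle group and 0.890 within the IL-33 treatment group, and 0.638 without IL-33 replicate 7, where the adjusted permutation p was 0.0719. Cxcl2 was also related to its receptor gene Cxcr2 by rank, with rho = 0.747 (adjusted permutation p = 0.0249) and r = 0.633 (adjusted permutation p = 0.0667). Cxcr2 was related in the same way to S100a8, with rho = 0.735 (adjusted permutation p = 0.0249) and r = 0.603 (adjusted permutation p = 0.0667), and to S100a9, with rho = 0.706 and r = 0.598. Csf3r was not: its r was -0.025 with S100a8, -0.083 with S100a9 and -0.44 with Retnlg (adjusted permutation p = 0.960, 0.871 and 0.239). With TMM-scaled library sizes these were 0.23, 0.16 and -0.15. Within single groups of 8 tumors, 1 pair passed the adjusted threshold in the vehicle group (S100a8 with S100a9) and 0 pairs did in the IL-33 treatment group. With library sizes scaled by TMM, 13 pairs passed in place of 4.

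**Figure D4:**
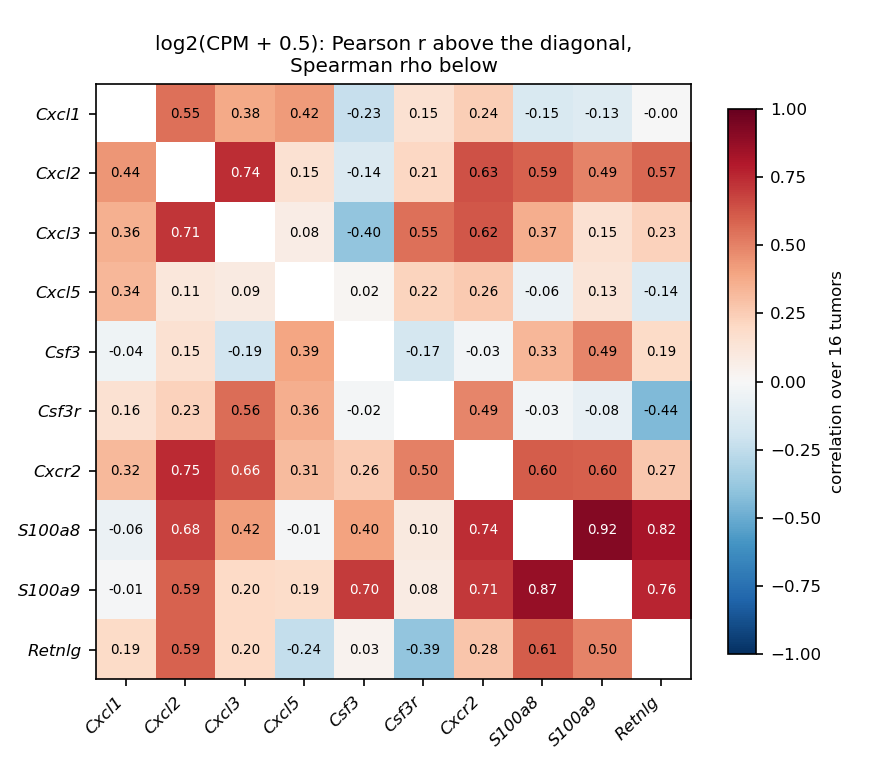
Correlation of log2(CPM + 0.5) between each pair of the 10 genes over 16 tumors, with Pearson r above the diagonal and Spearman rho below. S100a8 and S100a9 have r = 0.915 and rho = 0.874; Retnlg is closer to them by r (0.825 and 0.762) than by rho (0.609 and 0.497), and Cxcl2, Cxcl3 and Cxcr2 have rho of 0.656 to 0.747 with one another.

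The genes outside the list whose levels were most like those of a member over the 16 tumors were sought among genes with a mean of at least 1 CPM, by Pearson correlation of the log2 levels, as a description. For S100a8 they were Asprv1, Zpr1 and Trappc6a (r = 0.88, 0.88 and 0.85), for S100a9 Asprv1, Grhpr and Ramp3 (0.85, 0.84 and 0.83), and for Retnlg Castor1, Asprv1 and Gng8 (0.90, 0.88 and 0.87). Asprv1, an aspartic protease gene that is also expressed by neutrophils, was thus near the top for each of these 3 genes. The search was not repeated without vehicle replicate 4, which was far above the rest for these 3 genes. Asprv1 was at 10.2 CPM in that tumor, at most at 4.03 CPM in the other vehicle tumors and at most at 5.57 CPM in IL-33 tumors. For Cxcl3 they were Prss12, Ppp1r15a and Avil (0.88, 0.85 and 0.85), and for Cxcl2 Rab44, Gipc2 and Areg (0.82, 0.80 and 0.79). For Csf3 they were G0s2, Dmkn and Lrg1 (0.94, 0.88 and 0.87), and for Csf3r Gpat3, Cd274 and Rubcnl (0.88, 0.88 and 0.87). Cxcl5 was most like Cox11, Mrps6 and Sephs2 (0.91, 0.82 and 0.82), Cxcl1 like Nqo1, Lamtor3 and Surf4 (0.73, 0.73 and 0.72), and Cxcr2 like Bri3bp, Ppp1r15a and Il1f9 (0.70, 0.66 and 0.66). Without IL-33 replicate 7, the gene nearest to Cxcl2 was Il1f9 (0.82), which encodes the inflammatory cytokine IL-36γ, and the genes nearest to Csf3 and Cxcl3 were still G0s2 (0.91) and Prss12 (0.84). In that set of 15 tumors the nearest genes were Zpr1 for S100a8 (0.95), Mcub for S100a9 (0.93), Slc16a11 for Retnlg (0.92), Sh2d3c for Csf3r (0.91), Cox11 for Cxcl5 (0.90), Itgb7 for Cxcr2 (0.76) and Ccdc32 for Cxcl1 (0.69).

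In a list of 24 genes of neutrophil trafficking and upstream cytokines, 23 were tested, 0 passed the adjusted threshold and 2 were called at an unadjusted p under 0.05, both as higher (Csf2rb and Cxcl15). Over all genes tested, 9.99% were called as higher. The fitted value was above 0 for 19 genes of the list and below 0 for 4, against 58.3% above 0 over all genes tested. The median log2 fold change of the list was 0.35, or 0.27 without IL-33 replicate 7, against 0.056 and -0.011 over all genes. Csf2rb, the common receptor chain for IL-3, IL-5 and GM-CSF, was at 17.4, 28.5 and 51.1 CPM in the vehicle group and at 22.8, 40.2 and 111.9 CPM in the IL-33 treatment group, with a log2 fold change of 0.57 (SE 0.25) and of 0.39 without IL-33 replicate 7, the highest tumor. Cxcl15 was at 4.73 CPM in that tumor and at 0 at the median of both groups. The third gene by unadjusted p was Selp, the P-selectin gene, at 0.88 (SE 0.44) with all tumors and 0.32 without IL-33 replicate 7. The cytokine gene Il1b, which is known to induce these chemokines, was at 12.2, 20.1 and 57.0 CPM in the vehicle group and at 2.76, 21.2 and 85.1 CPM in the IL-33 treatment group (log2 fold change 0.0046, SE 0.63), and Il17a had 0 reads in every tumor.

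Of 24 other genes of mature neutrophils, all 24 were tested, 0 passed the adjusted threshold, 1 was called as higher (Mxd1) and 1 as lower (Stfa2l1) at an unadjusted p under 0.05, and 11 had a fitted value above 0 and 13 below. Over all genes tested, 9.99% were called as higher, 1.17% were called as lower and 58.3% had a fitted value above 0. The median log2 fold change of the list was -0.097. Mxd1, a transcription factor gene of differentiated myeloid cells, was at 16.3, 28.7 and 43.5 CPM in the vehicle group and at 26.5, 46.4 and 55.3 CPM in the IL-33 treatment group (log2 fold change 0.47, SE 0.21). Stfa2l1, a stefin gene, had a log2 fold change of -2.54 with all tumors and of -1.16 without vehicle replicate 4, where it was at 3.25 CPM. The value of Wfdc21 moved from -1.49 to 0.12 in the same way. The lineage marker Ly6g was at 0.0572 to 0.849 CPM in the vehicle group and at 0 to 0.724 CPM in IL-33 tumors. The summed level of the list was highest in vehicle replicate 4 (1166 CPM) and next highest in IL-33 replicate 7 (1036 CPM), and it was 422.5 to 774.7 CPM in the other 14 tumors. Single genes made up much of these sums. Slpi was at 682.8 CPM in vehicle replicate 4 and at 79.7 CPM in IL-33 replicate 7, where Lrg1 was at 527.9 CPM. The sum is therefore not a measure of mature neutrophils.

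Genes of immature neutrophil granules differed from the 10 members in their counts. Of 12 such genes, 0 passed the adjusted threshold, and 7 were called as higher and 0 as lower at an unadjusted p under 0.05, against 9.99% and 1.17% of all genes. Without IL-33 replicate 7, 6 were called as higher and 0 as lower, against 1.83% and 2.29% of all genes. The median log2 fold change was 2.15 with all tumors and 1.504 without that tumor. Mpo, the gene of myeloperoxidase, was at 0, 0.0765 and 0.354 CPM in the vehicle group and at 0, 0.808 and 7.83 CPM in the IL-33 treatment group (log2 fold change 3.98, and 3.81 without IL-33 replicate 7). Ngp, a granule protein gene, was at 0.0572, 1.09 and 1.63 CPM and at 0.219, 2.59 and 15.7 CPM (2.07 and 1.65). Ltf, the gene of lactoferrin, had a log2 fold change of 6.04 that became 1.36 without IL-33 replicate 7, where it was at 361.1 CPM. Mpo, Ms4a3, Elane, Camp and Fcnb, 5 of the 7 genes called, were at most at 7.83 CPM in any tumor. Their vehicle medians were 0.0765, 0, 0.0555, 0.0247 and 0 CPM, and 3 reads equal at least 0.124 CPM in a vehicle tumor. Their fold changes thus start from values below that floor. Chil3 and Lcn2 had the highest vehicle means of the list (65.2 and 17.8 CPM). Their log2 fold changes were -0.13 and 0.044, or -0.0030 and -0.45 without IL-33 replicate 7. Of the 12 genes, 10 had a fitted value above 0 and 2 below. Whether the change of the list differed from that of the members was not tested.

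Among the marker lists of other cells, 0 genes passed the adjusted threshold. At an unadjusted p under 0.05, 0 of 10 macrophage genes, 0 of 8 monocyte genes, 0 of 8 fibroblast genes and 0 of 7 squamous epithelium genes tested were called. The shares over all genes tested were 9.99% as higher and 1.17% as lower, or 1.83% and 2.29% without IL-33 replicate 7. Against such shares, a count of 0 in a list this short is not a result about its cell type. Without IL-33 replicate 7, 2 monocyte genes were called as higher, Ly6c2 (log2 fold change 1.48 with all tumors and 1.68 without that tumor) and Itgam (0.60 and 0.74), and 1 fibroblast gene, Pdpn, was called as lower (0.032 and -0.74). Of 7 eosinophil genes tested 1 was higher (Prg2), and of 8 genes of mast cells and basophils 1 was higher (Kit) and 1 lower (Mcpt8). Kit rested on IL-33 replicate 7, where it was at 41.2 CPM, and its log2 fold change of 1.19 became 0.15 without that tumor. All 10 genes of uterus and oviduct were called as higher, and 0 of the 9 tested were without IL-33 replicate 7. Of 7 red blood cell genes 4 were called as lower, with a median log2 fold change of -2.30, and without IL-33 replicate 7 these became 6 and -3.40. Hba-a1 among them was at -3.10 with all tumors, at -4.59 without IL-33 replicate 7 and at -0.55 when the fit left out vehicle replicate 4, the same tumor that set the values of S100a8, S100a9 and Retnlg. In the fit without vehicle replicate 4, Hbb-bs, Hbb-bt and Hba-a2 were at -0.51, -0.75 and -0.14. The edgeR unadjusted p of these 4 hemoglobin genes was then 0.38 to 0.86.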

How the data were processed

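Poly(A) RNA of 8 vehicle and 8 IL-33 tumors was sequenced at a company. For every tumor, the authors deposited raw read counts per gene, without normalization. The submitters' processing notes name HISAT2, featureCounts and mm10; their versions, the annotation release and the strand setting are not given in the sources used here. Gene symbols were taken from GENCODE M21 (GRCm38), which named 22255 of 22298 genes. The 10 genes and all lists were chosen with earlier results of these data known.

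Counts were tested with edgeR 4.0.16 (TMM factors, quasi-likelihood, genes with at least 10 reads over the 16 tumors, Benjamini-Hochberg adjustment). Intervals for fold changes use 14 residual degrees of freedom. CPM is the count scaled to 1000000 counted reads of a tumor. Single genes were also compared on log2(CPM + 0.5) by enumerating all 12870 assignments of tumors to groups (exact two-sided permutation test), whose smallest possible p is 0.0001554. The 45 correlations between members used 100000 permutations (exact enumeration within a group), adjusted over the 45 pairs. The intervals rest on the spread between tumors, and the floor of 3 reads covers counting error only. Tumors were grouped by their labels. From each list, the 3 genes with the smallest p and those needed to describe its level were named, together with the 3 genes most like each member; Pdpn and Ly6c2 were named because their calls turn on IL-33 replicate 7, and Pglyrp1, Cxcr1, Padi4, Adgre1, Sele and Itgam were chosen for vehicle replicate 4 after their values were seen. Alternatives used DESeq2 1.42.0, limma 3.58.1, other filters and scalings, and each tumor left out in turn. The tests were run on simulated counts whose spread between tumors was capped and which held no outlying tumor. That run does not show how the tests behave with the tumors that stood apart here. R 4.3.3 and Python 3.11.15 were used.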

Additional observations from a re-analysis of the deposited data

Results flagged for a closer look

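Within each group of 8 tumors, the highest and the lowest value of each of the 10 genes were compared with the rest by Dixon's test. Of the 20 groups of values, 5 held a tumor that lay apart. The test was run on CPM, not on log2 levels, and its cut-off gives about 1 in 20 only for normally distributed values. The count of 5 was therefore not compared with a rate expected by chance. In vehicle replicate 4 these were S100a8 (104.8 CPM, next highest 21.7 CPM), S100a9 (249.0 CPM, next highest 56.6 CPM), Retnlg (85.9 CPM, next highest 13.6 CPM) and Csf3 (1.56 CPM, next highest 0.736 CPM). In IL-33 replicate 2 it was S100a9 (61.2 CPM, next highest 36.4 CPM). These groups of values are not independent, since 4 of the 5 come from 1 tumor and S100a8, S100a9 and Retnlg varied together.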

How the results depend on the processing

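No member passed the adjusted threshold under any alternative. Over all genes the count past it was 0 in every fit except DESeq2 without outlier replacement, an alternative chosen after seeing the data, which gave 162. The count of members at an unadjusted p under 0.05 was 0 in the edgeR fit of all tumors, 2 under limma voom (Cxcl3 and Csf3r), 1 under DESeq2 without outlier replacement (S100a9), and 0 to 1 when 1 tumor was left out, S100a9 being called without vehicle replicate 1, 3, 7 or 8 or IL-33 replicate 2. The count of all genes at an unadjusted p under 0.05 was 1876 in the edgeR fit, 691 under DESeq2, 966 under limma voom, 640 of 12800 under filterByExpr, 651 of 15803 without IL-33 replicate 7 and 659 of 15744 without that tumor and vehicle replicate 4. The number of correlated pairs moved from 4 to 13 with TMM-scaled library sizes, also chosen after seeing the data.

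When each tumor was left out in turn, the sign turned in 13 of 160 fits. The log2 fold change ranged from -0.028 to 0.40 for Cxcl1, from -0.36 to 0.18 for Cxcl2, from -0.41 to 0.033 for Cxcl5, from -0.32 to 0.83 for Csf3, from -1.10 to 0.57 for S100a8, from -1.59 to 0.085 for S100a9 and from -1.62 to 0.33 for Retnlg. The difference of the mean log2(CPM + 0.5) ranged from -0.064 to 0.32 for Cxcl1, from -0.39 to 0.032 for Cxcl2, from -0.13 to 0.27 for Csf3, from -0.16 to 0.41 for S100a8 and from -0.50 to 0.14 for S100a9. In the other 89 fits the sign turned in 12. Without both vehicle replicate 4 and IL-33 replicate 7, chosen after seeing the data, the log2 fold change was 0.34 for Cxcl2, 0.12 for Cxcl5, 0.66 for S100a8, 0.14 for S100a9 and 0.44 for Retnlg. Limma voom gave 0.079 for Cxcl2, -0.60 for Csf3 and 0.34 for S100a8. DESeq2, which replaced the vehicle replicate 4 counts, gave 0.56 for S100a8, 0.10 for S100a9 and 0.34 for Retnlg. The difference of means was -0.0034 for Csf3 with a pseudocount of 0.1 and -0.074 for S100a8 with TMM-scaled library sizes. Cxcl3, Csf3r and Cxcr2 kept a positive log2 fold change in every fit run. Csf3 could not be fitted under filterByExpr, which removed it.

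The labels do not say whether the replicate numbers pair the tumors. Correlations of the deviations of same-numbered tumors lay between -0.32 and 0.35, which cannot settle it. With the replicate number as a block, the log2 fold change of S100a8 was 0.11, and 318 genes in place of 1876 had an unadjusted p under 0.05. Apart from the sign changes named for single tumors, the causes of these changes were not tested. Csf3 rested on few reads, 74 in the vehicle group and 119 in the IL-33 treatment group, with 0 to 51 reads per tumor.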
